A study of Homo sapiens with 8 samples.

Results

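The sequence on both sides of the chromosome 4 centromere was examined for called regions of γH2AX, the phosphorylated form of a histone H2A variant that marks chromatin around DNA breaks. Members were all regions of the 3 deposited peak lists whose midpoint lies on chromosome 4 from 48 Mb to below 54 Mb (human build hg19). The list of cells given Pt-ttpy held 395 members of 17789 regions on chromosomes 1 to 22 and X. The list of cells given cisplatin held 388 of 25671, and the list of untreated cells 326 of 9709. In all, 1109 of 53169 regions qualified. The window was chosen by its high number of called regions in these lists, so counts, widths and folds are given as a description, with no test. Members made up 36.8% of the 1074 Pt-ttpy regions on chromosome 4, 30.6% of the 1270 cisplatin regions and 46.6% of the 699 untreated regions.

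All cells were A2780, a human ovarian carcinoma line. The groups were cells treated with Pt-ttpy, a G-quadruplex binder that carries platinum, cells treated with cisplatin, which crosslinks DNA, and cells without drug. Treated cells were exposed for 96 hours at the IC80 of the drug in question. The 8 samples comprise 2 per group and 2 of input chromatin from untreated cells, whose values were not analysed here. Both replicates of a group are tied by the labels to the same list, so each condition has 1 list, no replicate error and no p-value. Read totals are not in the lists, so the depth is unknown.

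Centromeres are built on long arrays of repeated satellite DNA, and the sequence beside them is rich in satellites and in segments copied from elsewhere in the genome. The build hg19 holds a large gap in place of the array itself. Reads from repeated copies can be placed at more than one position, and an assembled copy can receive reads of copies that the assembly lacks. γH2AX is a broad mark that normally spreads far from a break, while the regions here are short called peaks. Whether repeated sequence or copy number contributes to the regions described here was not tested.

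Around the gap the regions fell into 3 dense blocks, and almost nothing was called elsewhere in the 6 Mb window. The longest stretch without a region in any list ran from 49660114 to 52660194, a length of 3.00 Mb, and is taken here as the centromere gap. Its edges are thus set by the nearest called regions and were not checked against the build. The outer short-arm block spanned 49093253 to 49338462 (245 kb). A stretch of 151 kb without any region followed. No hg19 sequence was at hand, so whether the build holds sequence in that stretch was not checked. The inner short-arm block spanned 49489014 to 49660114 (171 kb) and by this definition ends at the edge of the gap. The long-arm block spanned 52660195 to 52681495 (21.3 kb) and by the same definition begins at the other edge. Of the 60 windows of 100 kb, 51 were empty in all 3 lists, including those inside the centromere gap, where no region can be called.

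The nearest regions outside the window lay at some distance from the blocks. The last region before 48 Mb ended at 45015214 in the Pt-ttpy list, at 45839375 in the cisplatin list and at 40297592 in the untreated list. The next region after 54 Mb began at 56198961 in the Pt-ttpy list, at 54028270 in the cisplatin list and at 56713072 in the untreated list. The fold of a region is the peak caller's enrichment at the summit over a background that is constant within its list, so folds can be ranked only among regions of the same list. The regions just outside the window had folds of 3.01 on both sides in the Pt-ttpy list, 2.77 on both sides in the cisplatin list, and 9.32 and 4.81 in the untreated list. Just inside the window, the outermost short-arm region began at 49093255, 49093253 and 49093268 in the Pt-ttpy, cisplatin and untreated lists, with folds of 21.1, 26.0 and 36.4. The outer block thus opened at nearly the same base in each list. Just inside the 54 Mb limit, the last Pt-ttpy region ended at 52681438 (fold 4.30), the last cisplatin region at 53186150 (3.64) and the last untreated region at 52680454 (4.81).

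**Figure D1:**
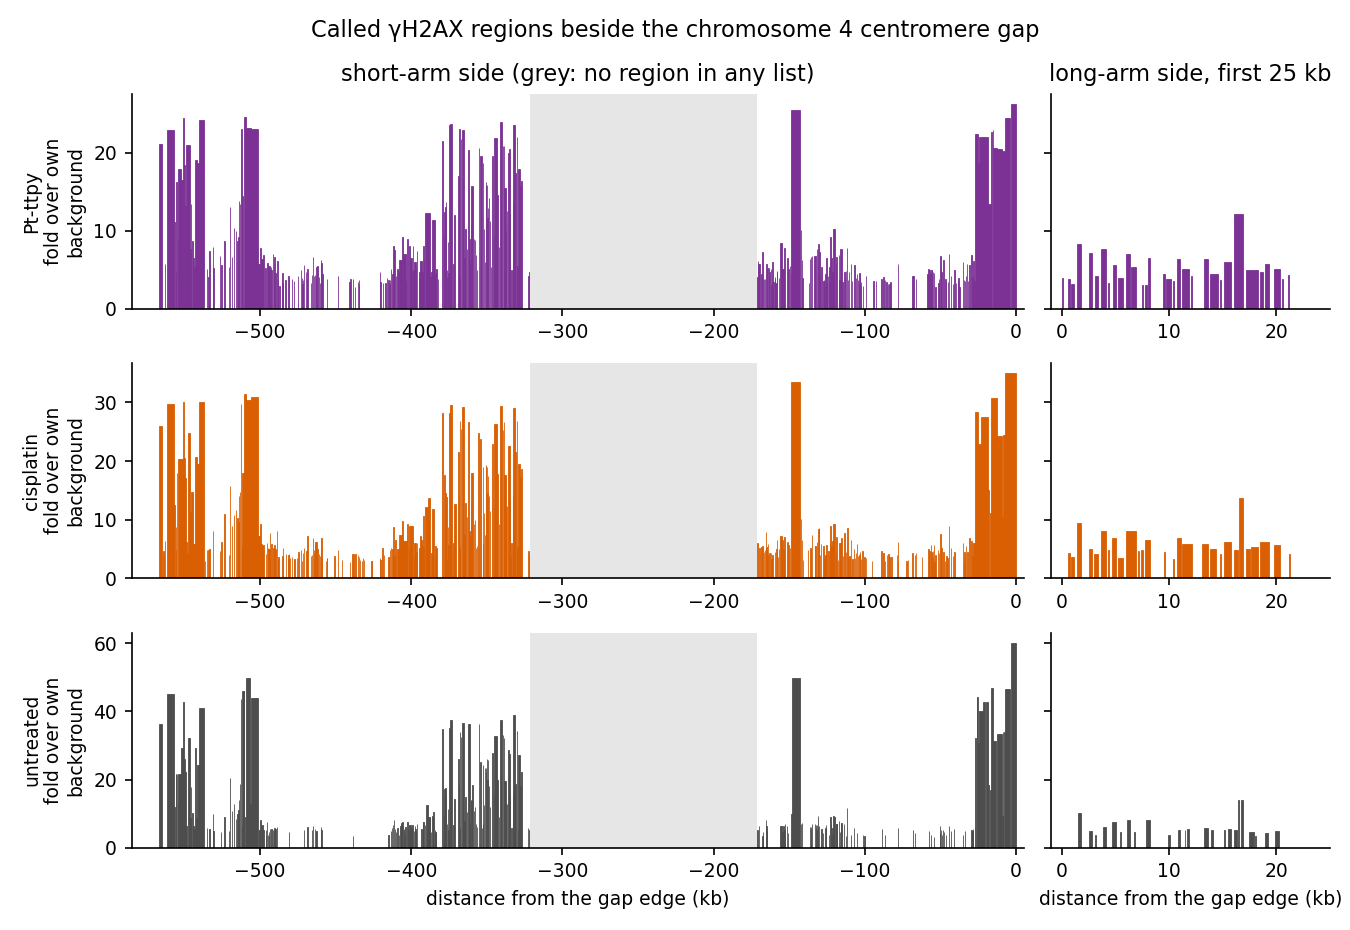
Each bar is 1 called region, placed by its distance in kb from the edge of the centromere gap and as high as its fold over the background of its own list. The rows are Pt-ttpy, cisplatin and untreated, each with its own vertical scale, and the cisplatin region 526 kb into the long arm is not drawn. The tall groups of bars stand at the same distances in the 3 rows, and the long-arm side holds only low bars, up to folds of 12.2, 13.7 and 14.1.

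RefSeq's gene table, which is on another build (GRCh38.p14) and was used only for the order of genes, lists CWH43 and DCUN1D4 as neighbouring protein-coding genes on chromosome 4. CWH43 takes part in remodelling the lipid of membrane-anchored proteins, and DCUN1D4 in attaching NEDD8 to cullins. Between them the table places 13 genes without coding function, of which 12 are pseudogenes, SNX18 and mitochondrial copies among them, and 1 is a long noncoding RNA. No gene was assigned to a region, since the builds differ.

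The short-arm side carried most of the regions in every list. It held 363 of 395 Pt-ttpy regions (91.9%, 95% Wilson interval 88.8 to 94.2), 359 of 388 cisplatin regions (92.5%, 89.5 to 94.7) and 302 of 326 untreated regions (92.6%, 89.3 to 95.003). The intervals cover counting error only and treat regions as independent, which clustered regions are not. The long-arm side held 32 Pt-ttpy, 29 cisplatin and 24 untreated regions. By block, the outer short-arm block had 215 Pt-ttpy, 220 cisplatin and 202 untreated regions, and the inner block had 148 Pt-ttpy, 139 cisplatin and 100 untreated regions. Per length the short long-arm block was the densest in each list, with 15.0 Pt-ttpy, 13.1 cisplatin and 11.3 untreated regions per 10 kb. The outer block had 8.77 Pt-ttpy, 8.97 cisplatin and 8.24 untreated regions per 10 kb, and the inner block 8.65, 8.12 and 5.84 in the same lists.

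Among windows of 100 kb, the fullest was 49.1 to 49.2 Mb, with 89 Pt-ttpy, 89 cisplatin and 81 untreated regions. The window from 49.2 to 49.3 Mb held 81 Pt-ttpy, 83 cisplatin and 74 untreated regions. In both, the lists differed by few regions. The window from 49.5 to 49.6 Mb, in the inner block, held 84 Pt-ttpy and 82 cisplatin regions against 57 untreated regions. On the long arm the window from 52.6 to 52.7 Mb held the whole block, with 32 Pt-ttpy, 28 cisplatin and 24 untreated regions.

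Treated regions were somewhat more numerous than untreated regions here. Pt-ttpy regions were 1.21 times and cisplatin regions 1.19 times as many as untreated regions, where over chromosomes 1 to 22 and X the ratios were 1.83 and 2.64. Pt-ttpy and cisplatin regions were nearly equal in number, with a ratio of 1.02, against 0.693 over those chromosomes. Beside the chromosome 10 centromere (38 to 44 Mb) the ratios to untreated were 1.48 for Pt-ttpy and 1.55 for cisplatin. On proximal chromosome 21 (9 to 15 Mb) they were 1.09 and 1.19. The ratio of Pt-ttpy to cisplatin was 0.953 and 0.916 in these 2 places, so such ratios were not peculiar to chromosome 4. In the chromosome 4 window, the direction of the ratios to untreated depends on how regions are counted. With regions within 1 kb merged they were 0.877 and 0.892, and with equal numbers of top regions from each list 0.966 and 0.917. The untreated list also lacks some of its own peak numbers. In this window 49 of 345 numbers were missing (14.2%), against 8848 of 18049 (49.0%) in the whole untreated list. Some of its numbers sit on more than 1 piece, and with such pieces counted once the ratios here were 1.33 for Pt-ttpy and 1.31 for cisplatin. With missing numbers counted, the ratios were 1.14 for Pt-ttpy and 1.12 for cisplatin here, and 1.0096 and 1.45 for the whole lists. On that basis the Pt-ttpy ratio of the window was no longer below that of the whole list, and the cisplatin ratio was below it by less. With equal list lengths the whole-list ratio is 1 by construction. Whether depth of sequencing sets these ratios was not tested.

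Covered length differed more than the count. Regions covered 195 kb in the Pt-ttpy list, 202 kb in the cisplatin list and 128 kb in the untreated list, so the treated lists covered 1.53 and 1.58 times the untreated length. Over chromosomes 1 to 22 and X these ratios were 2.13 and 2.62, against an untreated list that lacks a larger share of its numbers there than in the window. The ratios of covered length were 1.41 for Pt-ttpy and 1.46 for cisplatin beside the chromosome 10 centromere. On proximal chromosome 21 they were 1.66 and 1.72. The outer block was covered to 45.3% in the Pt-ttpy, 46.6% in the cisplatin and 32.0% in the untreated list. In the inner block the covered shares were 42.5% for Pt-ttpy, 44.3% for cisplatin and 25.5% for untreated cells. The long-arm block showed the widest ratio, with 52.8% covered in the Pt-ttpy and 53.4% in the cisplatin list against 25.7% in the untreated list.

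The bins next to the gap and at 500 to 510 kb from it were among the most covered of the short arm in each list. In the 10 kb next to the gap, regions covered 92.7% of the sequence in the Pt-ttpy, 95.3% in the cisplatin and 88.2% in the untreated list. From 500 to 510 kb away they covered 91.9% in the Pt-ttpy, 93.5% in the cisplatin and 80.4% in the untreated list. Between these ends lay stretches with little coverage, such as 70 to 80 kb from the gap, at 2.33% for Pt-ttpy, 7.05% for cisplatin and 1.33% for untreated cells. The lists parted more widely in other bins. From 400 to 410 kb away, 84.8% was covered in the Pt-ttpy and 86.6% in the cisplatin list, against 41.8% in the untreated list. From 160 to 170 kb away it was 49.8% for Pt-ttpy and 40.1% for cisplatin, against 12.1% for untreated cells. Of the 57 short-arm bins, Pt-ttpy covered more than untreated in 43 and less in 0, and cisplatin likewise in 43 and 0. The remaining bins were empty in all 3 lists. Pt-ttpy covered more than cisplatin in 12 bins and less in 31, with a median difference of -0.28 percentage points and a range of -8.01 to 9.74.

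**Figure D2:**
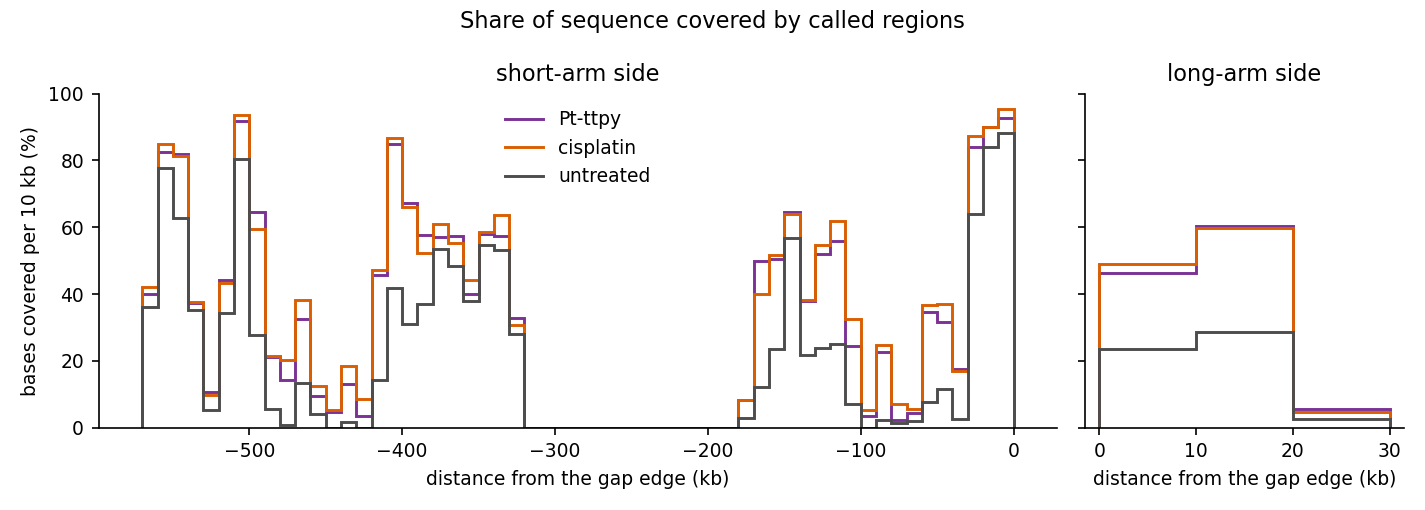
Lines give the percentage of each 10 kb bin covered by called regions in the Pt-ttpy, cisplatin and untreated lists, against the distance in kb from the edge of the centromere gap on each arm. The treated lines run close together, and no bin has the untreated line above a treated one.

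The medians of region width beside the gap were above those of the whole lists. The median width was 266 bp (quartiles 165 and 526) for Pt-ttpy, 292.5 bp (175 and 519) for cisplatin and 211 bp (135 and 367) for untreated members. Over chromosomes 1 to 22 and X the medians were 185 bp for Pt-ttpy, 169 bp for cisplatin and 164 bp for untreated cells. On proximal chromosome 21 (9 to 15 Mb) they were 292 bp for Pt-ttpy, 266 bp for cisplatin and 227 bp for untreated cells, so wide regions were not peculiar to chromosome 4. Beside the chromosome 10 centromere (38 to 44 Mb) the medians went the other way. They were 166 bp for Pt-ttpy, 165 bp for cisplatin and 136 bp for untreated cells, below those of the whole lists. Chromatin had been sheared to 200 to 700 bp. Regions over 1 kb made up 9.87% of Pt-ttpy (39), 10.1% of cisplatin (39) and 7.06% of untreated members (23). The narrowest Pt-ttpy and cisplatin members measured 101 bp, and the narrowest untreated member 29 bp. The untreated list held 33 members under 101 bp. The untreated list is cut into pieces: 25 of its peak numbers here sit on more than 1 piece, and 57 of its pieces do not hold the summit recorded for them. The part of this cutting in the difference in width was not tested.

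**Figure D3:**
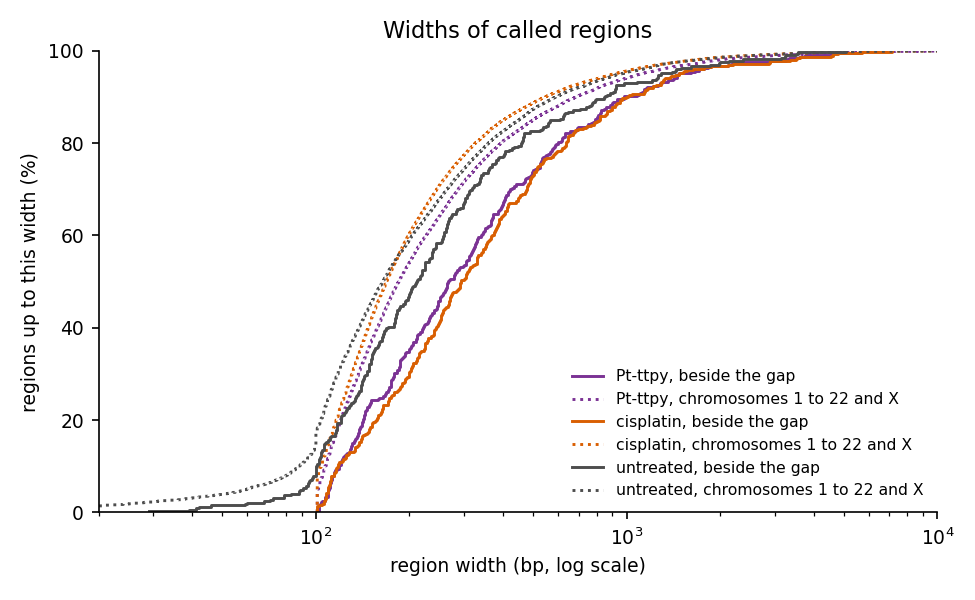
Cumulative share of regions (%) up to each width in bp (log scale), for Pt-ttpy, cisplatin and untreated regions beside the chromosome 4 gap (solid) and over chromosomes 1 to 22 and X (dotted). Each solid line lies to the right of its dotted line through most of its range, with medians of 266, 292.5 and 211 bp beside the gap.

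Matching regions at shared places showed the same difference in extent. A place is a stretch of overlapping regions from any of the lists, and there were 394. Where a place was called in all lists and held exactly 1 region of each of a pair, the Pt-ttpy region was wider than the untreated region in 146 of 160 cases, by a median of 47.5 bp. The cisplatin region was wider than the untreated region in 157 of 168 cases, by a median of 63.5 bp. Pieces of cut untreated peaks remain among these cases. The recorded summits lay inside both regions in 146 of the 160 Pt-ttpy pairs and 153 of the 168 cisplatin pairs. The part of this cutting in the matched differences was not tested. The Pt-ttpy region was wider than the cisplatin region in 66 of 183 cases and narrower in 113, with a median difference of -7 bp. Summits of these Pt-ttpy and cisplatin regions lay a median of 8 bp apart, and 152 of 183 pairs (83.1%) lay within 50 bp.

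The strongest region was the last before the gap, as taken here, on the short-arm side. In the Pt-ttpy list it ran from 49656526 to 49660107 (3582 bp) with a fold of 26.3. In the cisplatin list it ran from 49652998 to 49660114 (7117 bp) with a fold of 35.0, and in the untreated list from 49656545 to 49660102 (3558 bp) with a fold of 60.1. Each stood at the highest -log10 q of its list, which 36 Pt-ttpy, 27 cisplatin and 18 untreated regions share. The cisplatin region took in a neighbour that was separate in the other lists, at 49653124 to 49656387 for Pt-ttpy and 49653142 to 49656378 for untreated cells.

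The widest Pt-ttpy region beside the gap ran from 49511494 to 49517200 (5707 bp, fold 25.5), 143 kb from the gap. Its cisplatin counterpart ran from 49511454 to 49517190 (5737 bp, fold 33.4). The untreated list held the same place as a piece from 49511470 to 49511828 and its own widest region, from 49512131 to 49517189 (5059 bp, fold 49.9). The strongest place was thus common to the lists, and so was this wide one, with nearly the same outer borders.

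The highest folds on the long arm were well below those on the short arm within every list. The highest fold there was 12.2 in the Pt-ttpy list, for the region from 52676284 to 52677143. In the cisplatin list it was 13.7, from 52676749 to 52677144, and in the untreated list 14.1, on pieces from 52676682 to 52676764 and from 52676956 to 52677134. This place lay about 16 to 17 kb from the gap in each list. The widest long-arm region was 1106 bp in the Pt-ttpy list (52677406 to 52678511), 923 bp in the cisplatin list (52666180 to 52667102) and 406 bp in the untreated list (52680049 to 52680454). Median folds on the long-arm side were 4.56 for Pt-ttpy, 5.02 for cisplatin and 5.11 for untreated regions, and on the short-arm side 5.33, 5.54 and 6.92 in the same lists. The higher short-arm medians came with the outer block, at 6.49 for Pt-ttpy, 6.23 for cisplatin and 9.02 for untreated regions. The inner block had medians of 4.62 for Pt-ttpy, 4.85 for cisplatin and 6.31 for untreated regions, of which the cisplatin value lay below that of the long arm.

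Members ranked high within their own lists. In the top 10% of the whole list by -log10 q stood 28.6% of Pt-ttpy members (113), 35.1% of cisplatin members (136) and 31.3% of untreated members (102), where ties make this 10.1%, 10.5% and 10.4% of the lists as a whole. The outer block carried most of these, with 92 Pt-ttpy, 103 cisplatin and 83 untreated regions. The inner block held 19 Pt-ttpy, 27 cisplatin and 17 untreated regions of that rank, and the long-arm side 2, 6 and 2. Members with a -log10 q under 5 numbered 68 for Pt-ttpy (17.2%), 62 for cisplatin (16.0%) and 48 for untreated cells (14.7%). Over chromosomes 1 to 22 and X such regions made up 42.4% of the Pt-ttpy, 53.1% of the cisplatin and 26.1% of the untreated list. Beside the chromosome 10 centromere they made up 17.6%, 19.6% and 10.1%, and on proximal chromosome 21 29.0%, 32.2% and 23.7%. The shares in the top 10% there were 23.5%, 31.8% and 26.6% for chromosome 10, so high ranks were not peculiar to chromosome 4. For chromosome 21 they were 12.9%, 18.4% and 5.62%, in the same order of lists.

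Most treated regions beside the gap lay on a region that was also called without drug. At least 1 bp was shared with an untreated region by 255 of 395 Pt-ttpy members (64.6%, 95% Wilson interval 59.7 to 69.1), against 39.5% of all Pt-ttpy regions. For cisplatin it was 254 of 388 members (65.5%, 60.6 to 70.02), against 27.3% of all cisplatin regions. The untreated list lacks 49.0% of its numbers as a whole and 14.2% in this window, and the part of this in the lower whole-list shares was not tested. Untreated regions also stood densely here, covering 32.0% of the outer, 25.5% of the inner and 25.7% of the long-arm block. In densely covered sequence an overlap of 1 bp is met more easily than in sparse sequence. The part of this density in the higher shares of the window was not tested. In the other direction, 321 of 326 untreated members (98.5%, 96.5 to 99.3) lay on a Pt-ttpy region and 322 (98.8%, 96.9 to 99.5) on a cisplatin region, near the shares of the whole untreated list of 95.1% and 96.1%. In 2 similar places, the Pt-ttpy share on untreated regions was 58.8% beside the chromosome 10 centromere (38 to 44 Mb) and 54.3% on proximal chromosome 21 (9 to 15 Mb), and the cisplatin share was 55.5% and 49.2%. Whether these places differ from chromosome 4 was not tested, as regions are not replicates.

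The drugs' lists shared most of their regions here. Of the Pt-ttpy members 363 of 395 (91.9%, 88.8 to 94.2) overlapped a cisplatin region, against 69.9% of the whole Pt-ttpy list. Of the cisplatin members 343 of 388 (88.4%, 84.8 to 91.2) overlapped a Pt-ttpy region, against 47.8% of the whole cisplatin list. Beside the chromosome 10 centromere the shares were 83.3% of Pt-ttpy and 77.6% of cisplatin regions, and on proximal chromosome 21 they were 84.3% and 76.6%, also above the whole-list shares. The treated lists covered 42.5% to 53.4% of each block on chromosome 4. The part of this density in the overlap of the drugs' lists was not tested. By length, 89.2% of the bases covered in the Pt-ttpy list were covered in the cisplatin list and 86.3% the other way. Of the bases covered in the untreated list, 98.6% were in the Pt-ttpy and 98.6% in the cisplatin list. With at least 50% of both regions required, the shares fell to 66.1% of Pt-ttpy on cisplatin, 67.3% of cisplatin on Pt-ttpy, and 42.8% of Pt-ttpy and 42.3% of cisplatin on untreated regions.

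Of the 394 places, 230 (58.4%) were called in all 3 lists and covered 184 kb, against 20.9% of the 30004 places on chromosomes 1 to 22 and X. A further 86 (21.8%) were called in both treated lists and not in the untreated list, 30 in the Pt-ttpy list alone (7.61%) and 42 in the cisplatin list alone (10.7%). Over all these chromosomes the shares were 16.1% for both treated lists, 17.4% for Pt-ttpy alone and 44% for cisplatin alone. Places in all 3 lists made up 45.3% beside the chromosome 10 centromere and 39.9% on proximal chromosome 21. Only 1 place was called in the untreated list alone, at 49307000 to 49307103, with a fold of 5.71, where 0.577% of places were of this kind over all these chromosomes. The inner block had the lowest share of places in all lists, 67 of 148 (45.3%), against 146 of 216 (67.6%) in the outer block and 17 of 29 (58.6%) in the long-arm block. Of the untreated numbers, 23 of 115 (20%) were missing in the inner block and 24 of 205 (11.7%) in the outer block. In the long-arm block 1 of 24 (4.17%) was missing, so the order of the blocks differed between the measures. The part of missing numbers, or of the density of regions, in the share of places was not tested. In the inner block 49.3% of Pt-ttpy and 54.7% of cisplatin regions lay on untreated regions, against 75.3% and 72.3% in the outer block.

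**Figure D4:**
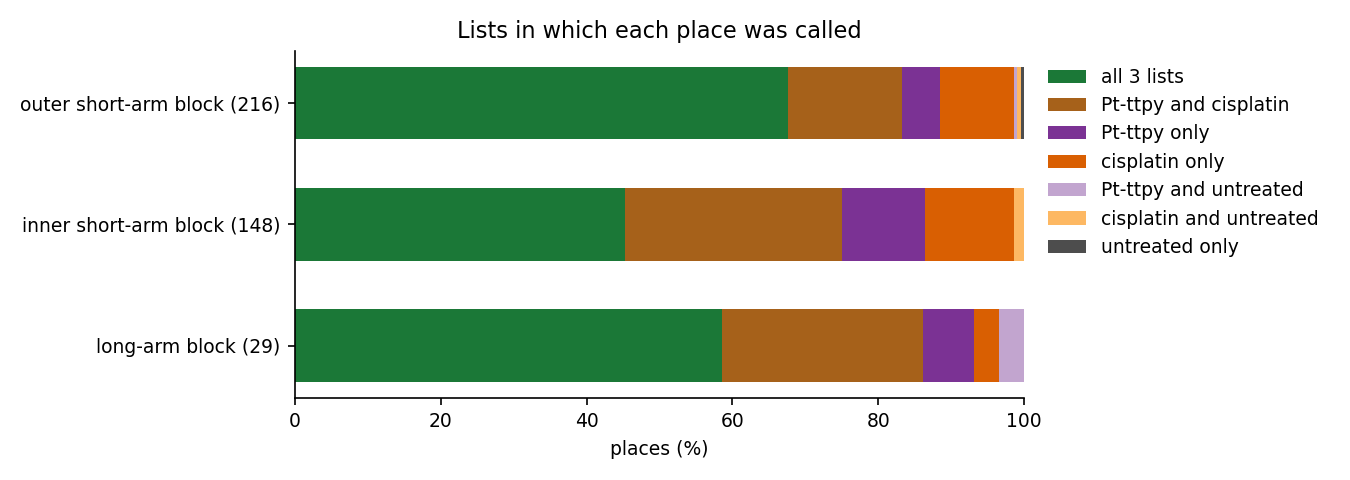
Bars give the percentage of places (stretches of overlapping regions) in each block that were called in each combination of lists, with the number of places in brackets. Places in all 3 lists make up 67.6% of the outer short-arm block, 45.3% of the inner block and 58.6% of the long-arm block.

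Treated regions off the untreated list were short and weak within their lists. With overlap counted from 1 bp, a wider region meets an untreated one more easily, and wider regions tended to have higher folds. The part of this in the values that follow was not tested. The 140 Pt-ttpy members off the untreated list had a median width of 166 bp and a median fold of 3.78, against 397 bp and 7.01 for the 255 on it. The 134 cisplatin members off the untreated list had a median of 174.5 bp and a fold of 3.89, against 402 bp and 7.18 for the 254 on it. Missing untreated numbers, placed between their retained neighbours, could stand for up to 40 of these Pt-ttpy and 37 of these cisplatin members. The strongest Pt-ttpy member off the untreated list lay at 49133609 to 49133739 (131 bp, fold 6.75), followed by 49268553 to 49268694 (fold 6.37) and 49299123 to 49299241 (fold 6.24). The strongest cisplatin members off it lay at 49266134 to 49266440 (307 bp, fold 7.27), 49629272 to 49629514 (fold 6.92) and 49502060 to 49502328 (fold 6.58). Each of these 6 regions overlapped a region of the other drug.

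On the long arm, the strongest members off the untreated list had folds of 4.69, 4.43 and 4.30 for Pt-ttpy, at 52678686 to 52679000, 52669673 to 52669787 and 52681330 to 52681438. For cisplatin they had folds of 4.85, 4.85 and 4.67, at 52667614 to 52667817, 52664463 to 52664620 and 52667324 to 52667442. Only the last of these 6 was absent from the list of the other drug. The cisplatin region at 53186029 to 53186150, singled out after the values were seen, was the only member outside the blocks. It was 122 bp wide, lay 505 kb beyond the long-arm block, and had a fold of 3.64, equal to the median of its list.

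At the 230 places called in all lists, the order of folds was much the same. Spearman's rho of the highest fold per place was 0.91 between Pt-ttpy and untreated, 0.90 between cisplatin and untreated, and 0.93 between Pt-ttpy and cisplatin. These are descriptions over places within 3 lists, which share the genome positions and any repeat content there, and carry no p-value. At 4 places, all in the outer block and singled out after their values were seen, the untreated fold ranked far above its place in the common order. At 49298523 to 49298652, for example, the lists gave folds of 8.95 for Pt-ttpy and 8.14 for cisplatin against 36.4 for untreated cells, each over its own background. In all 4 the untreated piece carried a peak number, and with it a fold, that also sat on pieces at another place. Without the 10 places of this kind, rho was 0.92, 0.91 and 0.93 over 220 places.

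**Figure D5:**
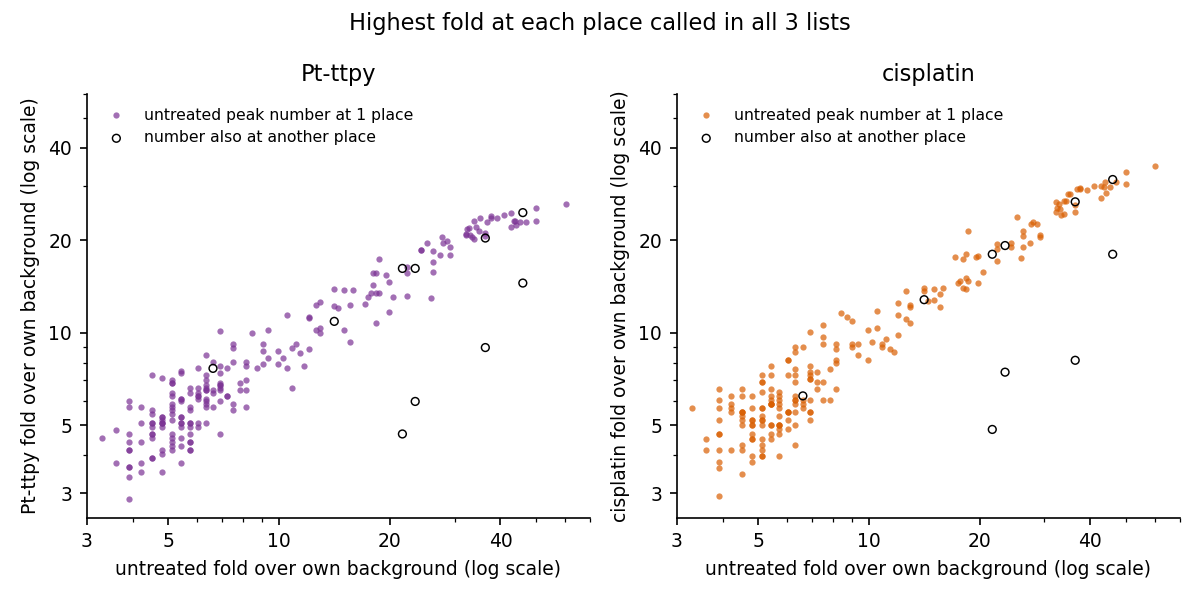
Each point is 1 of the 230 places called in all 3 lists, with the highest Pt-ttpy fold (left) or cisplatin fold (right) against the highest untreated fold, each over its own list's background and on log axes. Open circles mark the 10 places whose untreated peak number also sits at another place, and the 4 points far below the band are among them.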

How the data were processed

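Chromatin of A2780 cells was immunoprecipitated for γH2AX, sheared to 200 to 700 bp and read as single ends of 50 bases, per the labels' protocols. BWA 0.7.5, MACS2 2.1.0 and hg19 are named in the submitters' processing notes. The sources used here do not give the calling settings, the control or how replicates were joined. The names of both treated lists also carry the tag untr, which names the untreated list. Whether untreated data entered the treated lists, as control or otherwise, is not stated. The part of this in the ratios and overlaps was not tested. The authors deposited, for each peak, a fold enrichment ratio, a -log10 q-value, a whole-number score and a summit offset. The score and chromosome Y entered no result. Folds took 183, 184 and 179 distinct values in the Pt-ttpy, cisplatin and untreated lists on chromosomes 1 to 22 and X, and each fold went with 1 q-value, so the background is constant within a list.

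From these, regions were assigned by midpoint, blocks were parted at empty stretches of 100 kb or more, and overlap was counted from 1 bp. Positions are printed counted from 1. Named regions were, per list and side, the widest, the highest by q and the 3 highest by q off the untreated list (for the untreated list, off both treated lists). Members and rules were chosen with earlier results of these data known. No test was run, as each condition has 1 list. Stricter q, merging, equal list lengths, 50% reciprocal overlap, the distance to the gap and untreated numbering were tried as alternatives. Blocks, places, 10 kb bins and the removal of 10 places were added after the data were seen. The functions were tested on simulated data. Scripts ran in Python 3.11.15 with matplotlib 3.10.9, scipy 1.17.1, pandas 2.3.3 and numpy 2.4.6. No hg19 genome was used here, so no sequence is shown.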

Additional observations from a re-analysis of the deposited data

How the results depend on the processing

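Of 84 recomputed values, 58 stayed within the 95% interval of the value as deposited (for covered lengths, within 1.5 times), and 26 did not. These intervals treat clustered regions as independent and hold no replicate error, and the limit of 1.5 times was set by choice. Of the 58, 22 could not move, since their setting left their regions as they were. These include all 18 values for members within 1 Mb of the gap, as every member lies there. Counting missing untreated numbers, or untreated pieces of 1 number once, kept the 2 ratios to untreated within their intervals. With regions within 1 kb merged, the count ratios were 0.877 for Pt-ttpy and 0.892 for cisplatin to untreated, the short-arm shares 94.7% for Pt-ttpy and 94.8% for cisplatin, and the median widths 1224, 1290.5 and 666 bp for Pt-ttpy, cisplatin and untreated. Of merged cisplatin regions 84.5% lay on Pt-ttpy regions and of merged untreated regions 100% lay on cisplatin regions. With 9709 top regions from each list, the count ratios to untreated were 0.966 for Pt-ttpy and 0.917 for cisplatin, and the median widths of Pt-ttpy and cisplatin were 331 and 366 bp. Their shares on untreated regions were 78.4% and 79.9%, and untreated regions lay on Pt-ttpy regions in 96.3% and on cisplatin regions in 94.2%. With a -log10 q of at least 5, only the median widths moved, to 323, 332 and 236.5 bp for Pt-ttpy, cisplatin and untreated. With 50% reciprocal overlap, 42.8% of Pt-ttpy and 42.3% of cisplatin regions lay on untreated regions, 66.1% of Pt-ttpy on cisplatin, 67.3% of cisplatin on Pt-ttpy, 51.8% of untreated on Pt-ttpy and 50.3% of untreated on cisplatin. The cause of these moves was not tested. No paired analysis was possible because both replicates of a group share 1 list. For the same reason no replicate could be left out. With 1 list per condition, drug, depth and calling are confounded and their effects cannot be told apart.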

Other observations

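Regions within a block followed each other closely. The median space between neighbours in the outer block was 268 bp for Pt-ttpy, 255 bp for cisplatin and 301 bp for untreated regions, and in the long-arm block it was 216 bp for Pt-ttpy, 256 bp for cisplatin and 514 bp for untreated regions. In the inner block 85.7% of Pt-ttpy and 87.0% of cisplatin spaces were within 1 kb, against 65.7% of untreated spaces. The longest untreated space inside a block was 23468 bp, in the outer block, across which 5 untreated peak numbers are missing and 9 Pt-ttpy and 13 cisplatin members off the untreated list lie.

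Places called in all 3 lists were cut differently in each. Of the 230, the Pt-ttpy list held 199 as 1 region, the cisplatin list 208 and the untreated list 170, and the largest number of pieces at 1 place was 5 for Pt-ttpy, 3 for cisplatin and 8 for untreated cells. Within the blocks of each list wider regions tended to have higher folds, with Spearman's rho across regions from 0.51 to 0.67 on the short arm. On the long arm rho was 0.59 for Pt-ttpy, 0.63 for cisplatin and 0.22 for untreated regions. Regions are not independent replicates, and these values carry no p-value.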
